A study of Homo sapiens with 8 samples.

Results

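The genes described here encode 10 carriers or carrier subunits that move amino acids across the plasma membrane. The genes are SLC1A4, SLC1A5, SLC3A2, SLC7A1, SLC7A5, SLC7A6, SLC7A11, SLC38A1, SLC38A2 and SLC43A1. They were chosen by symbol, with earlier results of these data known, and each was found as 1 row of a deposited expression table of 25066 genes. RNA was sequenced in 4 groups of 2 libraries from TMD8, a cultured line of a human large B cell lymphoma of the ABC (activated B cell) type. All cells had been transduced with a lentivirus to express Cas9. Cells labelled KLHL14(+/+) stably carried a control guide RNA (sgCTRL), and cells labelled KLHL14(-/-) stably carried a guide against KLHL14 (sgKLHL14), the gene of a substrate adaptor for cullin-3 ubiquitin ligases. Each kind of cell was kept for 24 h with the solvent DMSO or with ibrutinib at 2 nM, a drug that binds and blocks BTK, the kinase that passes on signals of the B cell receptor. The labels do not say how many clones the guide-bearing cells came from, and name no separate cultures, so the p-values below measure spread between libraries that may be technical.

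Amino acid carriers differ in what they move and in what drives the movement. SLC1A5 and SLC1A4 exchange small neutral amino acids with the help of sodium, and SLC1A5 is a main entry route for glutamine in many dividing cells. SLC7A5, SLC7A6 and SLC7A11 are light chains that reach the cell surface bound to SLC3A2, the heavy chain also called CD98: SLC7A5 brings in leucine and other large neutral amino acids, SLC7A6 exchanges cationic for neutral ones, and SLC7A11 brings in cystine against glutamate. SLC43A1 carries branched-chain amino acids without sodium, SLC38A1 and SLC38A2 take up glutamine, alanine and other small neutral amino acids together with sodium, and SLC7A1 is the arginine and lysine carrier. Several of these genes are known targets of ATF4, the transcription factor of the amino acid response, which binds a composite C/EBP-ATF element. MYC, which binds E-boxes, is known to act on some of them as well.

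Promoter sequence is shown first because the members are described below beside ATF4 and MYC. RefSeq windows around start sites (250 bases before and 50 after, GRCh38.p14) were found for 9 of the 10 members, in 16 windows; SLC7A11 had no entry. The core of the C/EBP-ATF element, TGATGNAA read on both strands, stood in 5 of the 16 windows, each of a different member, and in 3.62% of all 35116 windows. The matches are given on the strand of each gene with the core in capitals, which for SLC1A4 and SLC3A2 is the reverse complement.
SLC1A4 (chr2:64989381-64989410, + strand): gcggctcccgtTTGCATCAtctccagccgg
SLC1A5 (chr19:46784893-46784922, - strand): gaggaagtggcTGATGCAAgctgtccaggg
SLC3A2 (chr11:62881719-62881748, + strand): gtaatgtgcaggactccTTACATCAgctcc
SLC7A1 (chr13:29595663-29595692, - strand): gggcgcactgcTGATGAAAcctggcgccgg
SLC38A1 (chr12:46266502-46266531, - strand): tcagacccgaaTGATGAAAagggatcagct

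The core spanned the start site in SLC1A4 and SLC38A1, lay within the first 45 bases after it in SLC7A1 and SLC3A2, and lay 97 to 90 bases before it in SLC1A5. For SLC1A5 that start is an inner one, 3780 bases from the start of the transcript listed in the table, and for SLC38A1 it is 2496 bases away. The start sites used in TMD8 were not measured. The E-box CACGTG, which reads the same on both strands, stood in 3 of the 16 windows against 7.26% of all windows. For SLC1A5 it lay at another inner start, 1301 bases from that of the listed transcript. The E-box is shown in capitals for the 3 members that hold it.
SLC1A5 (chr19:46787326-46787355, - strand): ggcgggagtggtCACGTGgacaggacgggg
SLC7A5 (chr16:87869620-87869649, - strand): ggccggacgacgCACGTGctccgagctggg
SLC43A1 (chr11:57515797-57515826, - strand): cagcgggcgagtCACGTGcgcgtgaaactc

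Of the other motifs searched on both strands, the cyclic AMP response element TGACGTCA stood in 0 of the 16 windows and in 1.85% of all windows. The antioxidant response core TGACNNNGC stood in 5 of the 16, those of SLC1A5, SLC3A2, SLC7A1, SLC7A5 and SLC7A6, and in 13.3% of all windows. A match is a description of these letters only.

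The libraries held 12333876 to 23467110 reads, and every member had at least 473 reads in every library. Values are the authors' log2 levels per gene, scaled between libraries, so a difference of 1 is a doubling and differences are comparable between genes whereas levels are not. All 10 members passed the filter on low levels that kept 12682 genes. A gene is said to have risen or fallen, or is counted as called, where limma gave an adjusted p under 0.05 over all of these genes. KLHL14 itself stood at 12.07 and 12.06 (log2) with sgCTRL and 12.19 and 12.33 with sgKLHL14 in DMSO, and at 12.30 and 12.30 with sgCTRL and 13.16 and 13.16 with sgKLHL14 in ibrutinib. Its RNA was thus not lower in the libraries labelled sgKLHL14, and read counts do not show whether the gene was cut. All 9 B cell markers were measured, while 4 of 9 T and NK cell markers (CD3D and CD3E among them) and 3 of 8 myeloid markers had 0 reads in all 8 libraries. Of 7 epithelial and stromal markers 1 had 0 reads in all 8. The filter was passed by 2 T and NK cell markers, 0 myeloid markers and 3 epithelial and stromal markers.

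Per length, SLC7A1 was the most abundant member and SLC7A11 the least in every group, among the 9 members whose listed transcript had a length in GENCODE v29 (SLC3A2 was not matched). In sgCTRL cells with DMSO, in reads per kilobase of transcript per 1000000 reads (RPKM; mean ± SD, n = 2), the order was SLC7A1 at 165 ± 3.80, SLC7A5 at 129 ± 4.44, SLC1A5 at 86.7 ± 0.933, SLC38A1 at 65.9 ± 0.160 and SLC38A2 at 47.5 ± 5.31. Below them stood SLC1A4 at 24.1 ± 0.300, SLC43A1 at 20.7 ± 0.259, SLC7A6 at 18.1 ± 0.323 and SLC7A11 at 10.3 ± 0.220. In that group the 2 libraries of each member lay apart from those of its neighbours in the order. With ibrutinib in sgCTRL cells SLC38A1, at 52.8 ± 1.37, passed SLC1A5, at 46.4 ± 1.03, and SLC7A6, at 23.3 ± 0.00321, passed SLC43A1, at 13.7 ± 0.0309. The same changes of place were seen in sgKLHL14 cells, where SLC1A4, at 36.6 ± 0.247, also came to stand above SLC38A2, at 34.8 ± 1.08.

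**Figure D1:**
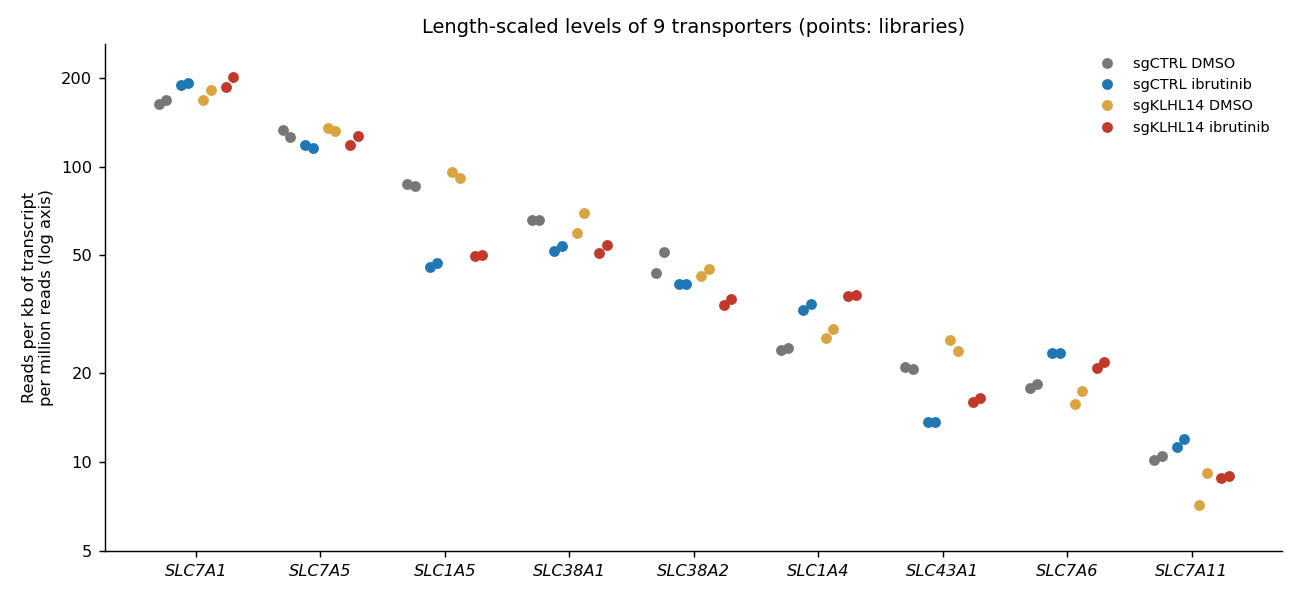
Levels of 9 members per transcript length (vertical axis, RPKM, log scale) in the 4 groups, each point being 1 library. SLC7A1 is on top in every group, and SLC1A5 drops from 86.7 to 46.4 between sgCTRL DMSO and sgCTRL ibrutinib, below SLC38A1 at 52.8.

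Taken as a sum, the reads of the members stayed between 3199 and 3539 per 1000000 in all 8 libraries, while their makeup differed. The share of SLC7A1, the arginine and lysine carrier, was 36.0% to 37.6% of the members' reads in the 4 DMSO libraries and 42.5% to 43.5% in the 4 ibrutinib libraries. For SLC1A5 the share was 7.33% to 8.23% in DMSO and 4.03% to 4.50% in ibrutinib. These are shares of reads, in which longer transcripts weigh more. In a bulk sample, fewer cells with a transcript and less of it per cell cannot be told apart.

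With ibrutinib the members split. In sgCTRL cells 3 rose (SLC1A4, SLC7A6 and SLC7A1) and 4 fell (SLC1A5, SLC43A1, SLC38A1 and SLC38A2), so 7 of 10 were called, where 34.8% of all genes tested were (17.9% higher and 16.9% lower). In sgKLHL14 cells 2 rose (SLC1A4 and SLC7A6) and 5 fell (SLC1A5, SLC43A1, SLC38A2, SLC38A1 and SLC3A2), again 7 of 10, where 38.9% of all genes were (19.7% higher and 19.3% lower). The median change of the 10 members was -0.09 in sgCTRL and -0.18 in sgKLHL14 cells (log2), beside 0.02 and 0.01 over all genes tested. The DMSO and ibrutinib libraries did not overlap for 9 of 10 members with either guide, which held for 69.6% of all genes with sgCTRL and 67.5% with sgKLHL14. Because the members and the gene lists below were chosen with earlier results of these data known, counts beside shares of all genes are descriptions only.

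**Figure D2:**
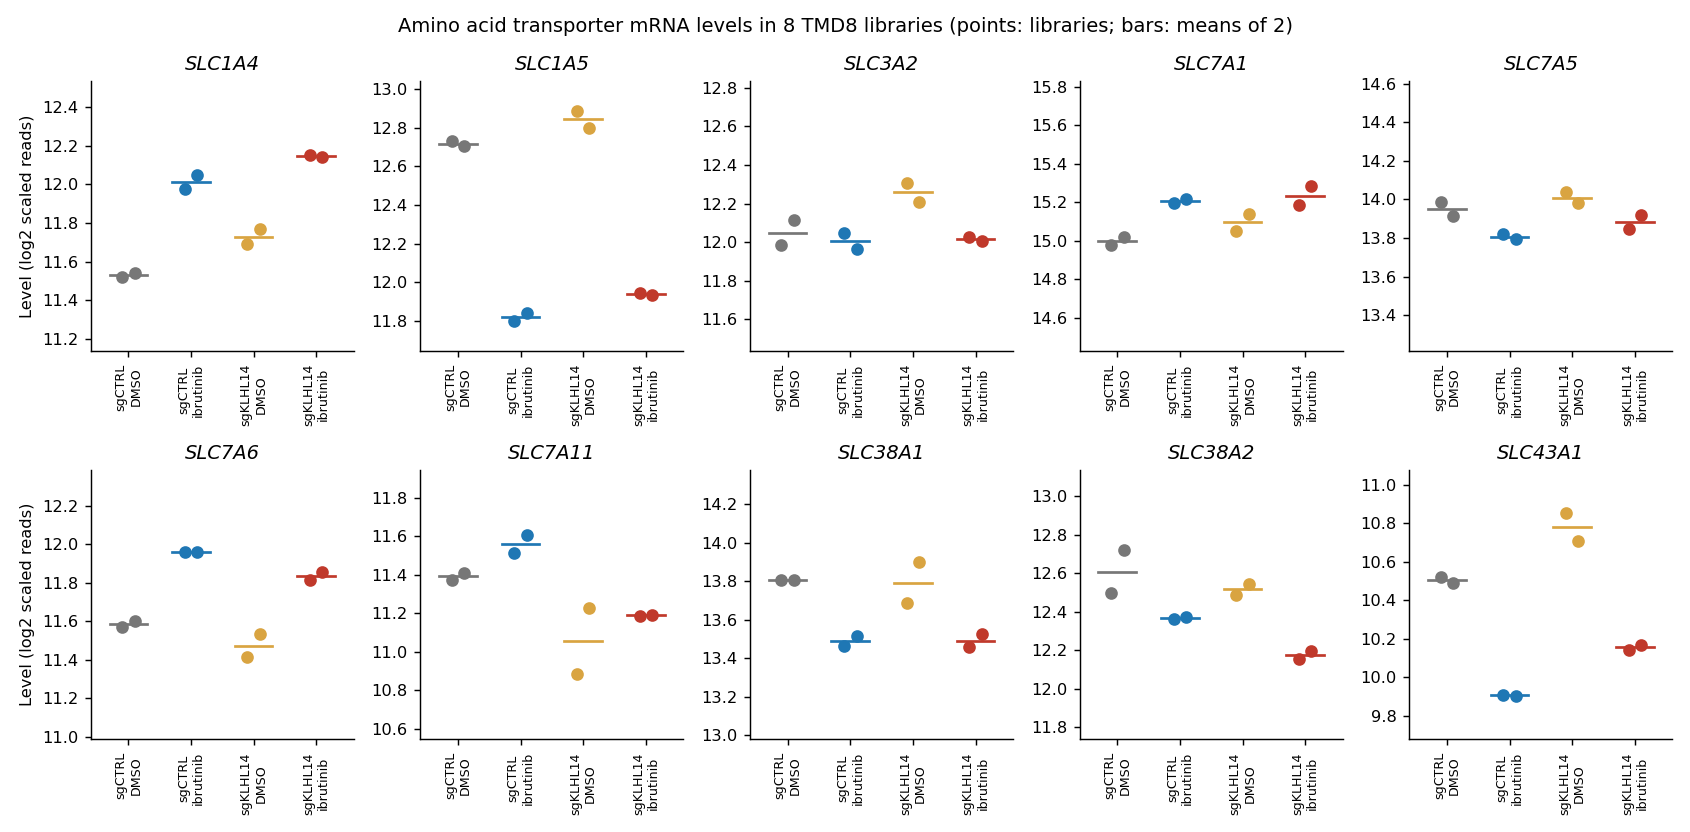
Deposited log2 level (vertical axis) of each of the 10 members in every library, by guide and treatment, with 2 points a group and a bar at the group mean. SLC1A5 and SLC43A1 sit lower in all 4 ibrutinib libraries than in all 4 DMSO libraries, and SLC1A4 and SLC7A6 sit higher.

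The neutral exchangers moved in opposite directions. SLC1A5 had the largest change of the members. Its log2 level was 12.73 and 12.70 with sgCTRL and 12.89 and 12.80 with sgKLHL14 in DMSO, and 11.80 and 11.84 with sgCTRL and 11.94 and 11.93 with sgKLHL14 in ibrutinib. All 4 ibrutinib libraries were below all 4 DMSO libraries. It fell by 0.90 (SE 0.058, adjusted p = 5.76e-10) with sgCTRL, a change of -46.4%, and by 0.91 (SE 0.058, adjusted p = 5.08e-10) with sgKLHL14. SLC1A4, its relative that prefers alanine, serine and cysteine, stood at 11.52 and 11.54 with sgCTRL and 11.69 and 11.77 with sgKLHL14 in DMSO. With ibrutinib it stood at 11.98 and 12.05 with sgCTRL and 12.15 and 12.15 with sgKLHL14, above every DMSO library. It rose by 0.48 (SE 0.060, adjusted p = 3.88e-06), or 39.6%, with sgCTRL and by 0.42 (SE 0.060, adjusted p = 1.69e-05) with sgKLHL14.

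Among the carriers of large neutral amino acids, SLC43A1 fell with both guides and SLC7A5 passed with neither guide. SLC3A2, the heavy chain that SLC7A5 binds, fell with sgKLHL14. SLC43A1, at 10.52 and 10.49 with sgCTRL and 10.85 and 10.71 with sgKLHL14 in DMSO, was at 9.91 and 9.90 and at 10.14 and 10.17 in ibrutinib. It fell by 0.60 (SE 0.074, adjusted p = 3.14e-06) with sgCTRL and by 0.62 (SE 0.074, adjusted p = 1.67e-06) with sgKLHL14, with no overlap between the DMSO and ibrutinib libraries. SLC7A5, the leucine carrier, stood at 13.99 and 13.91 with sgCTRL and 14.04 and 13.98 with sgKLHL14 in DMSO, and at 13.82 and 13.79 and at 13.85 and 13.92 in ibrutinib. Within each guide its ibrutinib libraries lay lower, and the differences of -0.14 (SE 0.058, adjusted p = 0.0625) and -0.13 (SE 0.058, adjusted p = 0.0944) did not pass. The first of these passed under 3 other scalings or depths (adjusted p = 0.0375 to 0.0464), in a fit of the 4 sgCTRL libraries alone (0.0228), and without sgKLHL14 DMSO replicate 1 (0.0430) or replicate 2 (0.0429).

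SLC3A2, the shared heavy chain, was at 11.99 and 12.11 with sgCTRL and 12.31 and 12.21 with sgKLHL14 in DMSO, and at 12.05 and 11.96 and at 12.03 and 12.01 in ibrutinib. The sgCTRL libraries overlapped between treatments, with a difference of -0.04 (SE 0.064, adjusted p = 0.641). With sgKLHL14 it fell by 0.24 (SE 0.064, adjusted p = 0.00556). That call was lost without sgKLHL14 DMSO replicate 1 (-0.19, adjusted p = 0.0535), without the filter on low levels (0.0888) and without a mean-variance trend (0.0551). SLC7A6, a light chain of the same heavy chain that exchanges cationic and neutral amino acids, rose. It stood at 11.57 and 11.60 with sgCTRL and 11.41 and 11.53 with sgKLHL14 in DMSO, and at 11.96 and 11.96 and at 11.81 and 11.85 in ibrutinib, every ibrutinib library above every DMSO library. The rise was 0.37 (SE 0.062, adjusted p = 0.00011) with sgCTRL and 0.36 (SE 0.062, adjusted p = 0.00012) with sgKLHL14.

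Both sodium-coupled carriers of the SLC38 family fell. SLC38A1 was at 13.81 and 13.81 with sgCTRL and 13.69 and 13.90 with sgKLHL14 in DMSO, and at 13.47 and 13.52 and at 13.46 and 13.53 in ibrutinib. All 4 ibrutinib libraries were lower, by 0.32 (SE 0.066, adjusted p = 0.000871) with sgCTRL and 0.30 (SE 0.066, adjusted p = 0.00123) with sgKLHL14, although neither call held without the filter on low levels (0.0860 and 0.0886). With sgKLHL14 the difference was -0.19 (adjusted p = 0.0252) without DMSO replicate 2. SLC38A2, whose RNA is known to respond to amino acid supply, stood at 12.50 and 12.72 with sgCTRL and 12.49 and 12.54 with sgKLHL14 in DMSO, and at 12.36 and 12.37 and at 12.16 and 12.20 in ibrutinib. It fell by 0.24 (SE 0.067, adjusted p = 0.00888) with sgCTRL and by 0.34 (SE 0.067, adjusted p = 0.0005) with sgKLHL14. In sgCTRL cells its change rested on few libraries: it was -0.13 (adjusted p = 0.174) without DMSO replicate 2, which was the highest of the 8, and did not pass without ibrutinib replicate 1 (0.0654) or replicate 2 (0.0587). Without the filter the adjusted p was 0.165 with sgCTRL and 0.0686 with sgKLHL14, and without a mean-variance trend it was 0.0861 with sgCTRL.

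SLC7A1, the cationic carrier, stood at 14.98 and 15.02 with sgCTRL and 15.05 and 15.14 with sgKLHL14 in DMSO, and at 15.20 and 15.22 and at 15.19 and 15.28 in ibrutinib. Its 4 ibrutinib libraries were the 4 highest. The rise passed with sgCTRL, at 0.21 (SE 0.062, adjusted p = 0.0124), or 15.7%, whereas the value of 0.14 (SE 0.062, adjusted p = 0.0827) with sgKLHL14 did not. In sgCTRL cells the call was lost without DMSO replicate 1 (0.0725), ibrutinib replicate 1 (0.0872) or ibrutinib replicate 2 (0.117), without the filter (0.135) and without a mean-variance trend (0.0618). In sgKLHL14 cells the rise passed without DMSO replicate 2 (0.0473) or ibrutinib replicate 1 (0.0484).

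SLC7A11, the cystine carrier, had larger differences between guides than between treatments, although the 2 sizes were not tested against each other. It stood at 11.38 and 11.41 with sgCTRL and 10.89 and 11.23 with sgKLHL14 in DMSO, and at 11.51 and 11.61 and at 11.19 and 11.19 in ibrutinib. The 4 libraries labelled sgKLHL14 were below the 4 labelled sgCTRL. Ibrutinib gave a difference of 0.17 (SE 0.083, adjusted p = 0.132) with sgCTRL and 0.13 (SE 0.083, adjusted p = 0.224) with sgKLHL14, and neither passed. The first passed in a fit of the 4 sgCTRL libraries alone (0.0267) and without sgKLHL14 DMSO replicate 1 (0.0356) or replicate 2 (0.0367); the second was -0.04 without sgKLHL14 DMSO replicate 1 and 0.30 (0.00342) without replicate 2. SLC7A11, SLC7A5 and SLC38A2 each have an antisense gene in the RefSeq list, and whether counting used strand is not given in the sources used here, so the reads of such pairs cannot be told apart.

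**Figure D3:**
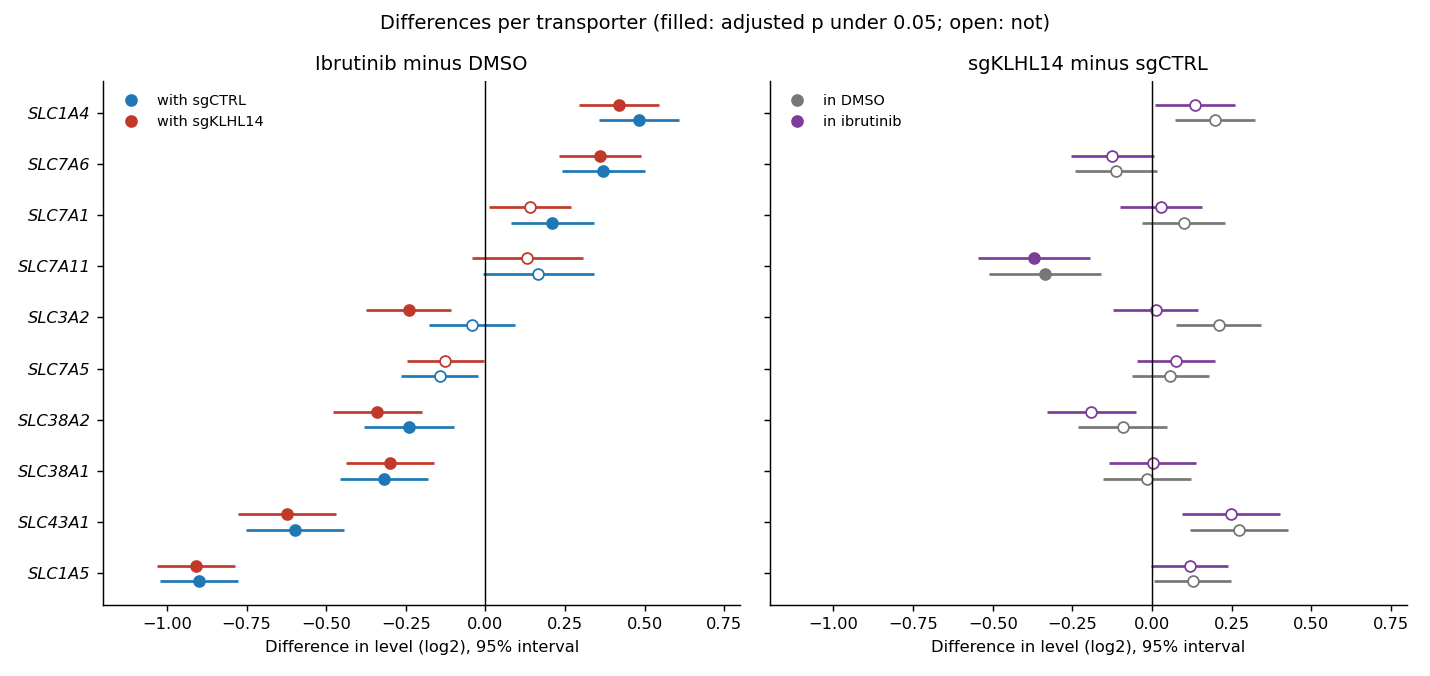
Log2 difference (horizontal axis) of each member between ibrutinib and DMSO with either guide and between guides in either treatment, with 95% intervals; filled points passed an adjusted p of 0.05. SLC1A5 lies near -0.90 with both guides and SLC1A4 at 0.48 and 0.42, and between guides SLC7A11 is the only filled point, at -0.34 and -0.37.

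Averaging the ibrutinib difference over both guides (4 libraries against 4, a comparison added after the data were seen) gave 10 of 10 members called, 4 higher and 6 lower, where 51.9% of all genes were called (26.8% higher and 25.2% lower). Members that had missed the threshold within a guide stood at -0.13 for SLC7A5 (adjusted p = 0.00984), -0.14 for SLC3A2 (0.0132), 0.17 for SLC7A1 (0.00242) and 0.15 for SLC7A11 (0.0410). The SLC7A11 call was lost under 5 of the other settings, limma-voom on recovered reads and median scaling among them, and on leaving out any of 6 libraries, with 0.06 (adjusted p = 0.280) without sgKLHL14 DMSO replicate 1, while it was 0.23 without its replicate 2. The SLC3A2 call was lost without sgCTRL DMSO replicate 2 (0.0686) or sgCTRL ibrutinib replicate 2 (0.0873), and that of SLC7A5 without the latter (0.0610). Without the filter the calls of SLC3A2 and SLC7A1 also ended, and without a mean-variance trend those of SLC3A2 and SLC7A5.

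Between guides the only member called was SLC7A11, which was lower in the libraries labelled sgKLHL14 by 0.34 (SE 0.083, adjusted p = 0.0469), a change of -20.8%, in DMSO, where 1.62% of all genes were called and 0.852% were lower. In ibrutinib it was lower by 0.37 (SE 0.083, adjusted p = 0.0184), where 2.35% of all genes were called and 0.781% were lower. The DMSO call was lost on leaving out any library other than sgKLHL14 DMSO replicate 2 (adjusted p = 0.0634 to 0.642; -0.17 without sgKLHL14 DMSO replicate 1 and -0.51 without its replicate 2) and with quantile scaling (0.0736) or reads thinned to equal depth (0.0551). The ibrutinib call was lost on leaving out each of the 4 ibrutinib libraries (0.0666 to 0.258), and neither call held without the filter (0.626 in DMSO) or without a mean-variance trend (0.386 and 0.271). Averaged over treatments, also a comparison added after the data were seen, SLC7A11 was lower by 0.35 (SE 0.059, adjusted p = 0.000757), with both of these settings again ending the call.

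No other member was called between guides within a treatment. SLC43A1 differed by 0.27 (adjusted p = 0.0671) in DMSO and 0.25 (adjusted p = 0.0882) in ibrutinib, its libraries labelled sgKLHL14 being higher in both, and it passed in DMSO without sgKLHL14 DMSO replicate 2 (0.35, adjusted p = 0.0247). SLC1A4 differed by 0.20 (adjusted p = 0.118) and 0.14 (adjusted p = 0.330). SLC3A2 differed by 0.21 (adjusted p = 0.120) in DMSO, which passed without sgKLHL14 DMSO replicate 2 (0.26, adjusted p = 0.0476), and by 0.01 (adjusted p = 0.974) in ibrutinib. Averaged over treatments 3 members passed, where 5.5% of all genes did: SLC7A11, SLC43A1 at 0.26 (adjusted p = 0.00371) and SLC1A4 at 0.17 (adjusted p = 0.0236), the last lost without any of 5 libraries (0.0542 to 0.158) and with thinned reads (0.0606). On leaving out 1 library, SLC38A2 ran from -0.197 to -0.0855, SLC1A5 from 0.101 to 0.1445 and SLC7A6 from -0.1485 to -0.0895. Each of these members passed without 1 of the libraries. None of the 3 averaged calls held without the filter or without a mean-variance trend. The guide comparisons share libraries with the drug comparisons, and libraries of the guides did not overlap for 7 of 10 members in either treatment, where 41.7% (DMSO) and 43.8% (ibrutinib) of all genes did not.

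The difference between the ibrutinib responses of the guides was called for 0 of 10 members in limma, and for 0.0237% of all genes. At an unadjusted p under 0.05 there was 1 of 10 members in limma-trend, SLC3A2, beside 721 of all 12682 genes (5.69%), and 0 members in limma-voom. For SLC3A2 the response with sgKLHL14 was lower by 0.20 (95% interval -0.39 to -0.01, adjusted p = 0.874). For SLC1A5 the interval ran from -0.18 to 0.16, for SLC1A4 from -0.24 to 0.12 and for SLC7A11 from -0.28 to 0.21. With 2 libraries a group, differences in response within those intervals remain possible. The intervals are not limits of detection, since a call also needed adjustment over all genes. The calls that passed with only 1 of the guides, those of SLC7A1 and SLC3A2, are therefore not shown to differ between guides.

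The nearest genes by pattern were found as those with the smallest root mean square difference from a member in centred log2 level over the 8 libraries, among 10121 tested genes with a current symbol. These likenesses describe 4 groups of 2 libraries and carry no test. For SLC1A5 they were ATF4 at 0.030, SHMT2, the mitochondrial serine hydroxymethyltransferase, at 0.033 and PCK2, the mitochondrial PEP carboxykinase, at 0.040. SLC43A1 had another amino acid carrier nearest, SLC38A5 at 0.033, then CXCR5 at 0.062. SLC38A2 was nearest to FIGNL1 at 0.043, HLTF at 0.046 and GCLC, a subunit of the first enzyme of glutathione synthesis, at 0.051.

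Among the members that rose, SLC1A4 had SP100 at 0.039, WDR37 at 0.043 and ZFAT at 0.058 nearest, and SLC7A6 had PARP8 at 0.027, NCKAP1L at 0.030 and IKBKB at 0.032. SLC7A1 was nearest to RPN2, an oligosaccharyltransferase subunit, at 0.027, ANGEL1 at 0.032 and TMED4 at 0.034. For SLC38A1 the nearest were PTPN11 at 0.032, NLN at 0.039 and SIPA1L1 at 0.039, and for SLC3A2 they were NARS2 at 0.024, DLST at 0.032 and PRPF19 at 0.035. Among the members themselves the closest pair was SLC3A2 with SLC7A5 at 0.083, and the next was SLC38A1 with SLC38A2 at 0.10. The measure is not scaled to the size of a change, so genes that change little lie close to each other. SLC3A2 was nearer to the genes just given for it than to SLC7A5.

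Other carriers of the plasma membrane were mostly low: of 30 listed, 10 were tested, and with sgCTRL 1 rose and 3 fell (median -0.16). Of all genes tested, 34.8% were called with sgCTRL and 38.9% with sgKLHL14. SLC43A2, the closest relative of SLC43A1, rose by 1.01 (SE 0.074, adjusted p = 3.25e-09) with sgCTRL and by 0.79 (adjusted p = 8.86e-08) with sgKLHL14, against the fall of SLC43A1. SLC6A9, a glycine carrier, fell by 1.84 with each guide (SE 0.13, adjusted p = 2.74e-09 and 2.81e-09), and SLC38A5, a relative of SLC38A1 and SLC38A2, fell by 0.60 (SE 0.065, adjusted p = 6.19e-07) and 0.59 (adjusted p = 6.49e-07). With sgKLHL14 again 1 rose and 3 fell (median -0.12). The third to fall was SLC1A1 with sgCTRL (-0.15, adjusted p = 0.0497) and SLC16A10 with sgKLHL14 (-1.13, adjusted p = 0.0111), which were named after their values were seen. The SLC1A1 call was lost without any of 6 libraries (0.0513 to 0.271), without a mean-variance trend (0.114) and with thinned reads (0.0606), and that of SLC16A10 without sgKLHL14 DMSO replicate 1 (0.054), DMSO replicate 2 (0.0646) or ibrutinib replicate 2 (0.106).

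Of 9 lysosomal and vesicular carriers tested, with sgCTRL 2 rose and 0 fell (median 0.14), SLC15A4 by 0.26 (adjusted p = 0.00456) and CTNS, the lysosomal cystine carrier, by 0.29 (adjusted p = 0.0394). The shares called over all genes were again 34.8% with sgCTRL and 38.9% with sgKLHL14. With sgKLHL14 SLC15A4 alone rose, by 0.34 (adjusted p = 0.000495). The CTNS call was lost without any 1 of the 4 sgCTRL libraries (0.0506 to 0.289), without a mean-variance trend (0.0725), with quantile scaling (0.0727), limma-voom (0.0598) and thinned reads (0.0607), and that of SLC15A4 with sgCTRL without ibrutinib replicate 2 (0.0521). Of 12 mitochondrial carriers, 0 rose and 5 fell with sgCTRL (median -0.08), among them SLC25A15, the ornithine carrier, by 0.57 (SE 0.11, adjusted p = 0.000403), and SFXN3 by 1.24 (SE 0.31, adjusted p = 0.00362). With sgKLHL14 1 rose and 5 fell (median -0.17): SLC25A29, named after its value was seen, rose by 0.94 (adjusted p = 0.000621), and SLC25A15 fell by 0.66 (adjusted p = 7.25e-05). With sgCTRL SLC25A29 stood at 0.15 and was not called. The difference in response between guides was called for 0 of the 12 mitochondrial carriers. SFXN3 was at -0.41 (adjusted p = 0.313) with sgKLHL14 and had 9 to 62 reads a library, and its call with sgCTRL was lost without DMSO replicate 1 (0.0634) or ibrutinib replicate 2 (-0.78, adjusted p = 0.0821).

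**Figure D4:**
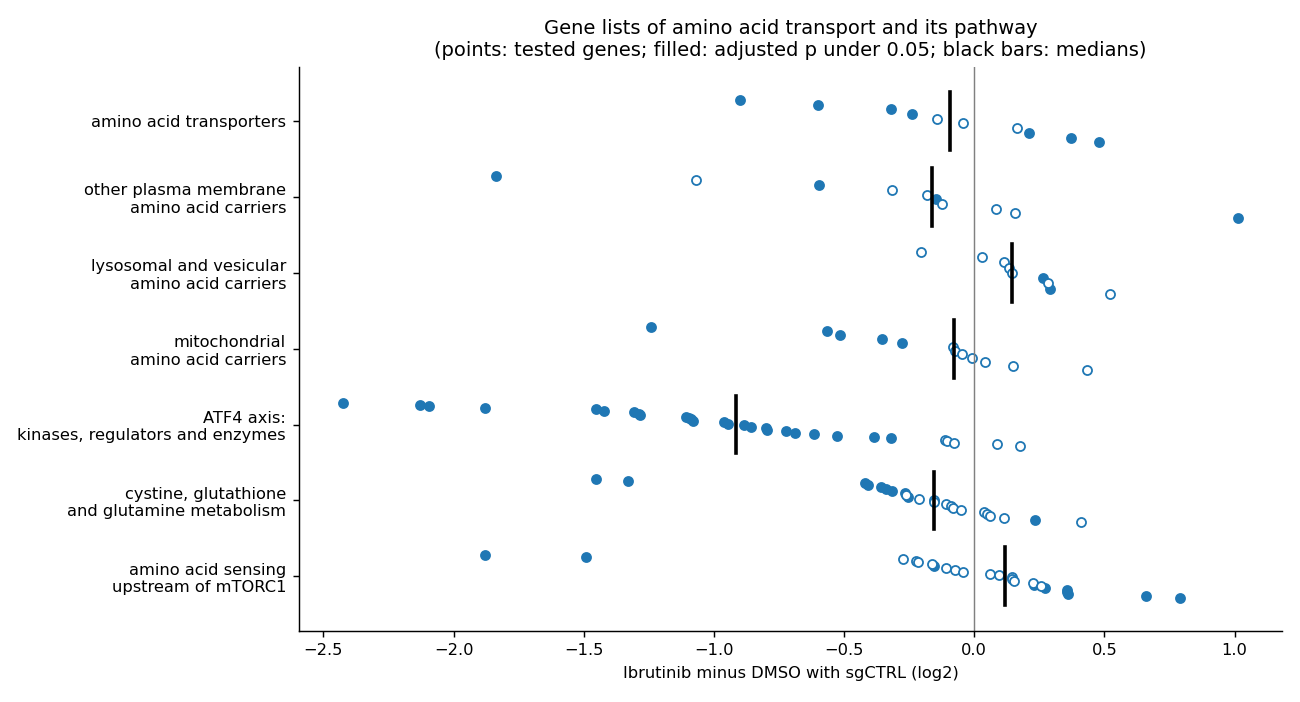
Log2 difference between ibrutinib and DMSO with sgCTRL (horizontal axis) of the tested genes of each list. Each point is 1 gene, filled where the adjusted p was under 0.05, and the bar is the list's median. The members lie on both sides of 0 (median -0.09) while most ATF4 axis genes lie below it (median -0.92).

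The genes around the carriers were read from 3 more lists, also chosen with earlier results of these data known. Their counts are descriptions and were not tested against all genes. Over all genes tested, 16.9% fell and 17.9% rose with sgCTRL, and 19.3% fell and 19.7% rose with sgKLHL14. Of 30 tested genes of the ATF4 axis (its kinases, regulators and enzymes), 25 fell and 0 rose with each guide, with medians of -0.92 and -0.91. ATF4 fell by 0.86 (SE 0.059, adjusted p = 1.21e-09) and 0.88 (adjusted p = 9.34e-10), close to SLC1A5. The lowest value in sgCTRL cells was that of CTH, which makes cysteine from cystathionine, at -2.42 (SE 0.11, adjusted p = 7.37e-12), with -2.28 (adjusted p = 1.64e-11) in sgKLHL14 cells. The next, -2.13 (SE 0.13, adjusted p = 2.89e-10) and -1.72 (adjusted p = 5.35e-09), were those of ALDH1L2, a mitochondrial folate enzyme. EIF2AK4, the kinase that senses uncharged transfer RNA, stood at -0.10 (adjusted p = 0.285) and -0.18 (adjusted p = 0.0514), the second passing without sgKLHL14 DMSO replicate 1 (0.0250), with a filter at 50 reads (0.0479) and with median scaling (0.0461). The 5 members whose windows hold the C/EBP-ATF core were on both sides: with sgCTRL SLC1A5 and SLC38A1 fell, SLC1A4 and SLC7A1 rose, and SLC3A2 was at -0.04.

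MYC fell by 0.40 (SE 0.066, adjusted p = 0.000109) with sgCTRL and stood at -0.17 (SE 0.066, adjusted p = 0.0546) with sgKLHL14. A call with only 1 of the guides does not show that the response of MYC differed between them. Of the 3 members with an E-box, SLC1A5 and SLC43A1 fell with both guides and SLC7A5 did not pass. Of the members without one in their windows, SLC38A1 and SLC38A2 also fell with both guides, while SLC1A4 and SLC7A6 rose with both. A part of MYC in these changes was not tested. MYC passed with sgKLHL14 with median scaling (0.0471), with thinned reads (0.0498) and without sgCTRL DMSO replicate 1 (0.0394) or 2 (0.0393) or sgKLHL14 DMSO replicate 2 (0.0229).

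For the intermediates the carriers feed, 23 genes of cystine, glutathione and glutamine metabolism were tested, of which 1 rose and 9 fell with sgCTRL (median -0.16) and 2 rose and 11 fell with sgKLHL14 (median -0.22). Beside them, 34.8% and 38.9% of all genes were called in either direction. ASNS, asparagine synthetase, fell by 1.45 (SE 0.066, adjusted p = 4.73e-12) and 1.36 (adjusted p = 1.39e-11), and is in the ATF4 list as well. SRXN1, which repairs oxidised peroxiredoxins, was at 5 to 28 reads a library and fell by 1.33 (adjusted p = 0.0158) and 1.15 (adjusted p = 0.0309), with sgCTRL not without DMSO replicate 1 (0.0892) or ibrutinib replicate 1 (0.0927), and with sgKLHL14 not without 3 of its 4 libraries (0.0618 to 0.197) or with thinned reads (0.0770). GLUL, glutamine synthetase, rose by 0.23 (SE 0.057, adjusted p = 0.00337) and 0.21 (adjusted p = 0.0067), the first not without ibrutinib replicate 2 (0.0846). GLS2, a glutaminase named after its value was seen, rose by 0.71 (adjusted p = 0.00547) with sgKLHL14, which was lost without DMSO replicate 1 (0.0575) or ibrutinib replicate 2 (0.0739), and stood at 0.41 (adjusted p = 0.100) with sgCTRL.

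Of 24 tested genes of amino acid sensing upstream of mTORC1, 7 rose and 3 fell with sgCTRL (median 0.12), and 5 rose and 5 fell with sgKLHL14 (median -0.002). These counts stand beside 34.8% and 38.9% of all genes called in either direction. SESN2, a leucine-binding inhibitor of the pathway and a known ATF4 target, fell by 1.88 (SE 0.14, adjusted p = 3.61e-09) and 1.75 (adjusted p = 9.73e-09), while its relative SESN1 rose by 0.66 (SE 0.14, adjusted p = 0.00132) and 0.62 (adjusted p = 0.00182). FNIP2, a folliculin partner at 6 to 43 reads a library, fell by 1.49 (adjusted p = 0.00646) and 1.67 (adjusted p = 0.00246), and GATSL3, the arginine sensor now called CASTOR1, rose by 0.79 (adjusted p = 0.0301) and 0.84 (adjusted p = 0.0202) at 16 to 41 reads. The FNIP2 call with sgCTRL was lost without DMSO replicate 2 (0.0504) or ibrutinib replicate 2 (0.0577) and with thinned reads (0.117), and its value with sgKLHL14 was -1.08 (adjusted p = 0.0442) without ibrutinib replicate 1. That of GATSL3 was lost with sgCTRL without 3 of the 4 libraries (0.110 to 0.178), with quantile scaling (0.0549) and thinned reads (0.0607), and with sgKLHL14 without DMSO replicate 2 (0.131) or ibrutinib replicate 1 (0.118).

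Between guides, 1 of 30 genes of the ATF4 axis was higher in the libraries labelled sgKLHL14 in DMSO and 3 of 30 in ibrutinib, and 0 were lower, where 1.62% and 2.35% of all genes were called in either direction. PPP1R15A, a phosphatase subunit that ends the stress response, differed by 0.33 (adjusted p = 0.0118) in DMSO and 0.51 (adjusted p = 0.000116) in ibrutinib, PSAT1, of serine synthesis, by 0.29 (adjusted p = 0.0167) and TRIB3 by 0.30 (adjusted p = 0.0452) in ibrutinib, all named after their values were seen. In DMSO PSAT1 stood at 0.16 and was not called. The PPP1R15A call in DMSO was lost without sgCTRL DMSO replicate 2 (0.125) or sgKLHL14 DMSO replicate 1 (0.169), that of PSAT1 without 3 of the 4 ibrutinib libraries (0.136 to 0.217), and that of TRIB3 without any of 6 libraries (0.0588 to 0.523). The TRIB3 call was also lost with limma-voom (0.128), thinned reads (0.0573) and a fit of the 4 ibrutinib libraries alone (0.0759). Its difference of 0.29 (adjusted p = 0.0638) in DMSO passed with limma-voom (0.0434) and thinned reads (0.0229). Without a mean-variance trend the calls of PPP1R15A (0.253 and 0.0604), PSAT1 (0.226) and TRIB3 (0.149) ended.

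Of the 9 B cell markers, 2 were higher in the libraries labelled sgKLHL14 in DMSO, and 1 in ibrutinib, where 1.62% and 2.35% of all genes were called in either direction. CD22, an inhibitory co-receptor named after its value was seen, differed by 0.24 (adjusted p = 0.0422) in DMSO, and stood at 0.12, not called, in ibrutinib. The CD22 call was lost without any of 5 libraries (0.0969 to 0.255), with limma-voom (0.0533), thinned reads (0.0861) and the 4 DMSO libraries alone (0.0675). Of the 12 mitochondrial carriers 1 was higher in each treatment, also named after their values were seen. SLC25A39 differed by 0.29 (adjusted p = 0.0432) in DMSO, which was lost without any of 5 libraries (0.0761 to 0.549), with quantile scaling (0.0537), limma-voom (0.0517) and thinned reads (0.0580). SLC25A29 differed by 1.06 (adjusted p = 0.00259) in ibrutinib, which was lost without sgCTRL ibrutinib replicate 1 (0.0846). In the other treatment SLC25A39 stood at 0.09 (ibrutinib) and SLC25A29 at 0.27 (DMSO), and neither was called. None of the calls of CD22, SLC25A39 and SLC25A29 between guides held without a mean-variance trend (0.0681 to 0.361). Without the filter on low levels they ended too, as did those of PPP1R15A, PSAT1 and TRIB3 and those given above for SLC1A1, SLC16A10, CTNS, SFXN3, SLC25A29, SRXN1, FNIP2 and GATSL3.

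Markers of other cells were read beside these results. B cell markers rose with ibrutinib in 7 of 9 cases with sgCTRL and 8 of 9 with sgKLHL14, where 17.9% and 19.7% of all genes rose. Their sum was 5449 to 6114 reads per 1000000 in the DMSO libraries and 8063 to 8604 in the ibrutinib libraries. The T and NK cell list summed to 1.68 to 2.09 reads per 1000000 in DMSO and 3.44 to 3.89 in ibrutinib, the myeloid list to 0.639 to 0.963 and 0.568 to 1.20, and the epithelial and stromal list to 14.1 to 17.5 and 16.7 to 18.5. With sgCTRL and sgKLHL14, CD4 rose by 1.74 and 1.32 and COL1A1 by 1.055 and 0.91, while KRT8 fell, at -0.47 and -0.60. CD4 belongs to the T and NK cell list, whose whole sum was at most 3.89 reads per 1000000. On leaving out 1 library CD4 ran from 1.14 to 2.34 with sgCTRL and from 1.11 to 1.54 with sgKLHL14. In the same way KRT8 ran from -0.55 to -0.39 with sgCTRL and from -0.69 to -0.51 with sgKLHL14. Without the filter on low levels the CD4 calls ended with both guides, that of COL1A1 with sgKLHL14 and that of KRT8 with sgCTRL. The part of other cells in the members' changes was not tested.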

How the data were processed

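Per the submitters' processing notes, bcl2fastq, STAR and HTSeq were used with the human build hg19. Their versions and settings, the annotation and the scaling are not given here by any source. The deposited table is neither counts nor another standard unit: its log2 levels come with a bottom line of library totals, which no test used. Turned back to the linear scale and divided by a constant per library (1.16 to 2.19), 100% of values were whole reads within 0.0006 on the log2 scale, adding up to 99.9995% to 100% of the deposited totals. The constant was set from the deposited total where that lay close to a first estimate from genes of few reads, so the match to the totals is no separate check. At high counts whole reads lie closer together than the tolerance can tell apart, so only low counts test whether values are whole reads. The table had 0 columns of other samples.

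Genes with a mean of at least 4.03 over all libraries (10 reads in a library of median scale) were kept, 12682 or 50.6% of rows. A model of 4 group means was fitted to the authors' log2 values by limma 3.58.1 (limma-trend, R 4.3.3; 4 residual and 15.0 prior degrees of freedom), with Benjamini-Hochberg adjustment. The fit was tested on simulated data. Alternatives were no filter, a filter at 50 reads, a larger pseudocount (16.3), no trend, a robust prior, quantile and median scaling, limma-voom on recovered reads, thinned reads, the contrast's own libraries, a replicate block and leaving out each library. Per-length levels used GENCODE v29 lengths. Promoters came from RefSeq (GRCh38.p14), and their coordinates were not set against hg19.

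Members and gene lists were chosen with earlier results of these data known. Names were given to the members, to the 2 highest and 2 lowest called genes of a list in sgCTRL cells, to ATF4, EIF2AK4, MYC and KLHL14, and to the 3 genes nearest in pattern to each member called with ibrutinib; 2 genes, 1 nearest in pattern and 1 B cell marker, are not reported here by name. B cell, T and NK cell, myeloid, and epithelial and stromal markers checked the cell type. The counting error is smaller in deeper libraries.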

Additional observations from a re-analysis of the deposited data

How the results depend on the processing

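SLC1A4, SLC1A5, SLC7A6 and SLC43A1 kept their direction and their call for ibrutinib with both guides in all 19 alternatives. Without the filter on low levels the members called numbered 4 with sgCTRL, 4 with sgKLHL14, and 0 between guides in DMSO, in ibrutinib and averaged. Without a mean-variance trend all 3 guide comparisons gave 0. Between guides in DMSO quantile scaling and thinned reads gave 0, and between guides in ibrutinib the contrast's own 4 libraries gave 2 (SLC38A2 added). The cause of these changes was not tested. Leaving out 1 library at a time gave 5 to 9 members with sgCTRL, 6 to 9 with sgKLHL14, 0 to 3 between guides in DMSO, 0 to 1 in ibrutinib, 0 to 0 for the difference in response, 7 to 10 averaged over guides and 2 to 5 between guides averaged. The difference in response was not fitted on a contrast's own libraries, since it needs all 8.

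Same-numbered libraries of different groups deviated together with correlations of -0.061 to 0.106, so the numbers were not taken to pair samples; with the replicate block 2 members were called between guides in DMSO (SLC43A1 added, adjusted p = 0.0350). The block also brought past the threshold SLC38A2 between guides averaged over treatments (-0.14, adjusted p = 0.0404), TRIB3 between guides in DMSO (0.0353), and EIF2AK4 (0.0321) and MYC (0.0252) for ibrutinib with sgKLHL14.

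Uncalled values near 0 changed sign. Between guides in ibrutinib SLC7A1 was -0.027 with quantile scaling, and SLC38A1 was -0.0018 with quantile scaling, -0.00761 with limma-voom and -0.013 with thinned reads. Leaving out 1 library gave, for ibrutinib, -0.106 to 0.021 for SLC3A2 and -0.13 to 0.43 for SLC25A29 with sgCTRL, and -0.0385 to 0.302 for SLC7A11 with sgKLHL14. Between guides it gave -0.122 to 0.0905 for SLC38A1 and -0.204 to 0.0195 for SLC38A2 in DMSO, -0.0315 to 0.0545 for SLC3A2, -0.0195 to 0.0755 for SLC7A1 and -0.0305 to 0.0345 for SLC38A1 in ibrutinib, and -0.0602 to 0.0463 for SLC38A1 averaged. For the difference in response the ranges were -0.053 to 0.034 for SLC1A5, -0.0205 to 0.0555 for SLC7A5, -0.069 to 0.049 for SLC7A6, -0.204 to 0.137 for SLC7A11, -0.0885 to 0.125 for SLC38A1, -0.21 to 0.013 for SLC38A2 and -0.0975 to 0.0475 for SLC43A1.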
